A study of Mus musculus with 2 samples.

Results

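The genes described here are 41 genes of macrophages, complement and antigen presentation, taken by their symbols from the 22882 gene symbols measured in mouse heart. Membership rests on the symbol alone. Pooled hearts of 5 Med1fl/fl mice, the control, were compared with those of 5 csMed1-/- mice. All mice were 23 days old, of mixed sex and on the C57BL6/J background. The control mice carried the floxed Med1 allele, where loxP sites flank exons 8 to 10. The csMed1-/- mice carried the same allele together with a Cre transgene driven by the α-MyHC promoter, which acts in cardiomyocytes from late gestation on, so leukocytes were not a target of the deletion. The csMed1-/- mice develop dilated cardiomyopathy, and the comparison asks how transcripts of the immune cells and immune pathways of the heart differed at that stage.

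With a single pool and 1 library for each genotype, there are no replicates, no test could be made and no value below has an error. Levels are FPKM, fragments scaled by transcript length and library total, which allows levels of different genes to be set side by side. Rows of the same symbol were summed. A gene was compared if neither library listed it at 0 and the higher value reached 1 FPKM, and was called higher or lower when the csMed1-/- to control ratio passed 2-fold. The FPKM summed to 780366 in the control and 716365 in the csMed1-/- library. The read totals are not given in the files used here, so the depth behind single values is unknown. Steps between low values gave a relative depth of 1.39 for the csMed1-/- over the control library. Med1, the targeted gene, had a csMed1-/- to control ratio of 0.122 (0.412 against 3.38 FPKM). Of 11 cardiomyocyte markers in the files, 9 were kept and 7 of these were lower past 2-fold, with Myl2, the ventricular myosin light chain, at 20467 and 6571 FPKM. Actc1 and Mb, which every cardiomyocyte uses, were listed at 0 in control but at 9189 and 1040 FPKM in csMed1-/- heart. A listed 0 is therefore not read as absence of a transcript.

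Resident macrophages are the main leukocytes of the healthy heart, where they clear dying cells and debris. They carry the CSF1 receptor, Fc receptors with their signalling adaptors, and secrete C1q, the recognition molecule of the classical complement pathway. C1q starts a cascade of proteases that cleaves C4 and C3, and the C1 inhibitor encoded by Serping1 restrains it. MHC class I molecules, paired with β2-microglobulin, present peptides of the cell's own proteins on nearly all cells. MHC class II molecules, assembled on the invariant chain, present engulfed proteins on macrophages, dendritic cells and B cells, and their genes depend on the coactivator CIITA. Genes of both classes carry a promoter module of X and Y boxes.

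Of the 41 genes 35 were kept. In csMed1-/- heart 8 of them (22.9%) were higher past 2-fold, against 13.6% of the 10489 genes kept in all, and 3 (8.57%) were lower past 2-fold, against 18.0% of all genes kept. Counted in either direction, 11 of the 35 passed 2-fold, against 31.5% of all genes kept. The 8 higher genes were Lgals3, Cd14, C4b, Serping1, H2-K1, Ccl2, Tlr4 and Tlr5. The 3 lower genes were Csf1, C3 and Cxcl12. The other 24 were inside 2-fold. Over the 35 genes the log2 ratio had a median of 0.32 and quartiles of -0.81 and 0.85, against a median of -0.07 and quartiles of -0.72 and 0.55 over all genes kept. Mrc1, Ccl2, Tlr4 and Tlr5 were kept only through their level in the csMed1-/- library, and Fcgr1 and Ciita only through that in control. With 1 FPKM asked of both libraries, 29 genes remained, of which 5 were higher and 3 lower, against 11.3% higher and 14.7% lower of the 9160 genes kept in all under that filter. Ptprc, Cx3cr1, Ccr2, Il6, Il1b and Tnf were below 1 FPKM in both libraries and were not kept. In a whole heart, fewer cells of a type and less RNA per cell cannot be told apart.

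**Figure D1:**
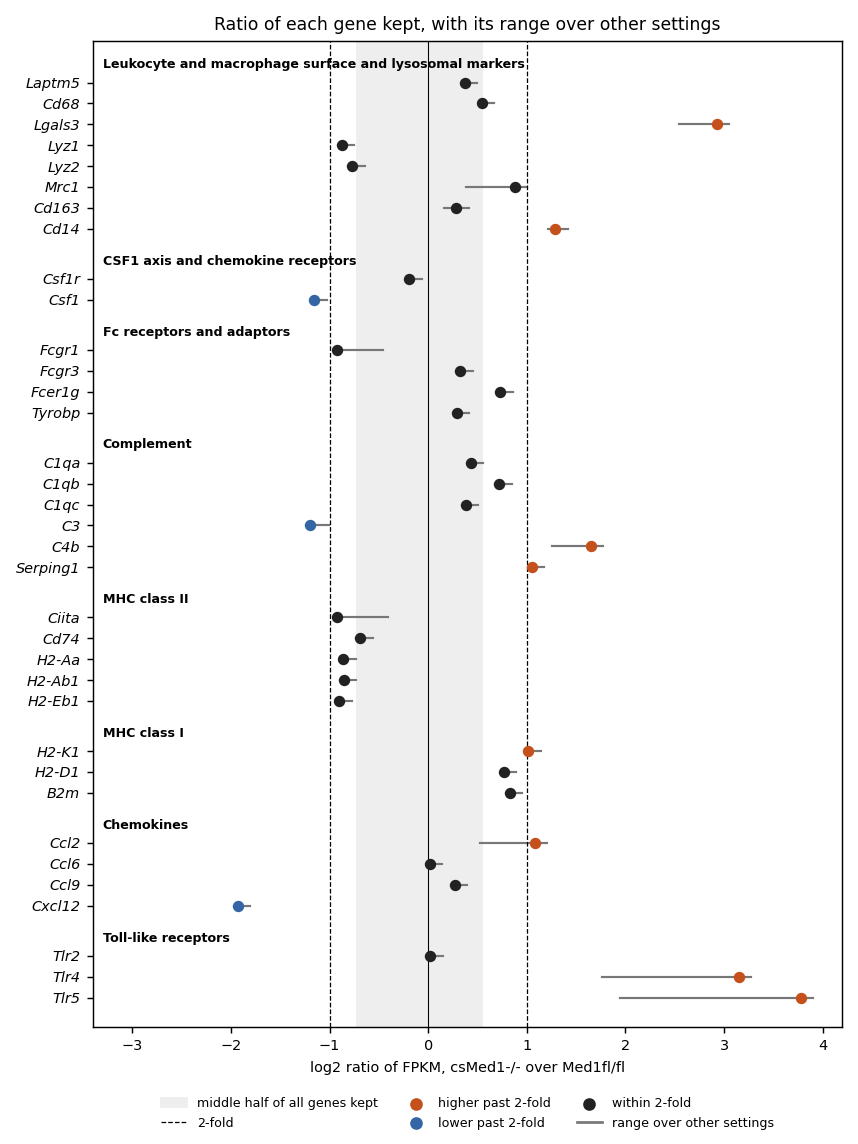
Log2 ratio of csMed1-/- to Med1fl/fl FPKM for the 35 genes kept, grouped by role, with 1 library per genotype. Points are the ratios, grey lines their range over the other settings tried, dashed lines 2-fold and the shaded band the quartiles of all genes kept (-0.72 and 0.55). All 5 MHC class II genes lie left of 0 between -0.92 and -0.69, and all 3 MHC class I genes lie right of it between 0.77 and 1.01.

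The clearest contrast lay between the 2 classes of MHC genes. The MHC class II genes were lower in csMed1-/- heart and the MHC class I genes higher, and within each class the genes differed by nearly the same factor. H2-Aa, the class II α chain, was at 81.9 FPKM in control heart and 45.2 FPKM in csMed1-/- heart (log2 ratio -0.86). H2-Ab1, its β chain partner, was at 73.7 and 40.9 FPKM (-0.85). The ratio of H2-Aa to H2-Ab1 was thus 1.11 in both libraries. H2-Eb1, the β chain of the second class II molecule, was at 35.9 and 19.3 FPKM (-0.90). Cd74, the invariant chain that escorts class II molecules to the endosome, was the most abundant of the group at 178 and 111 FPKM (-0.69). Ciita, the class II coactivator, stood at 1.10 and 0.584 FPKM (-0.92). Its values come from 2 rows of the files, at 0.532 and 0.0991 FPKM for the first and 0.569 and 0.485 FPKM for the second, so the lower sum came mostly from the first row. All 5 class II genes were lower, by 1.61-fold to 1.89-fold, and none passed 2-fold. Their log2 ratios spanned only 0.23.

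H2-K1 and H2-D1, the class I heavy chains, were at 106 and 147 FPKM in control and at 213 and 251 FPKM in csMed1-/- heart, which gave log2 ratios of 1.01 and 0.77. B2m, the light chain that all class I molecules share, was the most abundant of the 41 genes, at 315 and 559 FPKM (0.83). All 3 genes were higher, and H2-K1 lay only just past 2-fold at a ratio of 2.02. With values scaled to the 75th percentile, or to the sum without the 100 highest genes, H2-K1 came to 0.97 and 0.98 and was inside 2-fold. Class I genes are a family of close copies. Of the 50-base windows of the H2-K1 and H2-D1 transcripts, 9.63% and 12.8% are also found in transcripts of other genes, so part of their reads could have been shared with related genes.

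Ratios between genes of the same library do not depend on how the libraries were scaled. B2m was 3.85 times H2-Aa in control and 12.4 times in csMed1-/- heart, a difference of 1.68 on the log2 scale. C1qb, a macrophage product, was 0.954 times H2-Aa in control and 2.85 times in csMed1-/- heart. Cd74 stayed closer to H2-Aa, at 2.17 and 2.45 times its level. C1qa and C1qc were 1.11 and 0.978 times H2-Aa in control and 2.72 and 2.30 times in csMed1-/- heart. H2-Aa was thus lower against B2m and all 3 C1q chains of the same library. Against Lyz2 and Emr1, picked after their values were seen, it differed little. Lyz2 was 1.41 and 1.5 times H2-Aa, and Emr1, which encodes the macrophage antigen F4/80, 0.0407 and 0.0392 times. Both of these genes were themselves lower in csMed1-/- heart. Most macrophage genes were not, with 11 of the 16 kept of a further list of macrophage genes above a ratio of 1 and 5 below it.

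**Figure D2:**
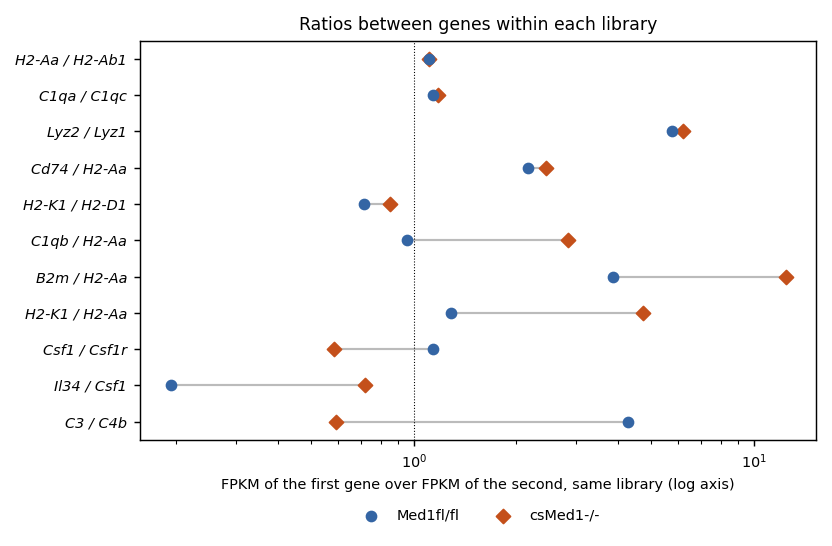
FPKM of a gene over that of another in the same library, on a log axis, for 11 pairs of genes in Med1fl/fl (circles) and csMed1-/- heart (diamonds). Of the pairs drawn, H2-Aa over H2-Ab1 at 1.11 in both libraries and C1qa over C1qc lie close together. C1qb over C1qc, which is not drawn, moved more, from 0.976 to 1.24. B2m over H2-Aa moves from 3.85 to 12.4 and C3 over C4b from 4.26 to 0.59.

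Promoter sequence was compared because the class I and class II genes share regulatory letters but differed in opposite directions. RefSeq promoters (GRCm38.p6, the assembly that mm10 names, 250 bases before to 50 bases after each start) were found for 30 of the 41 genes. They were not found for Cd14, Csf1r, Tyrobp, C1qa, C4b, Serping1, Ciita, Cd74, H2-Ab1, Ccl2 and Tlr4. The 180 bases before the start are shown 5′ to 3′ on the gene's strand, for the class II genes H2-Aa (chr17:34287824-34288003, minus strand) and H2-Eb1 (chr17:34305687-34305866, plus strand) and the class I genes H2-K1 (chr17:34000348-34000527, minus strand, the first of its 2 starts), H2-D1 (chr17:35262914-35263093, plus strand) and B2m (chr2:122147507-122147686, plus strand). Capitals mark the Y box core ATTGG or its complement CCAAT, the X2 box core TGACG and the X1 box core AGCAAC in H2-Eb1.
H2-Aa: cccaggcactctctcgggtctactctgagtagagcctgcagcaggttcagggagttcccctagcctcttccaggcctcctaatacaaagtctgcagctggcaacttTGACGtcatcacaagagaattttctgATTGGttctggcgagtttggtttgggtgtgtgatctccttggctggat
H2-Eb1: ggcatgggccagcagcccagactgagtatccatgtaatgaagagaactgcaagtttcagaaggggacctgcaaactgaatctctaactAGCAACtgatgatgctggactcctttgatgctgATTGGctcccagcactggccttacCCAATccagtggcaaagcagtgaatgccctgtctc
H2-K1: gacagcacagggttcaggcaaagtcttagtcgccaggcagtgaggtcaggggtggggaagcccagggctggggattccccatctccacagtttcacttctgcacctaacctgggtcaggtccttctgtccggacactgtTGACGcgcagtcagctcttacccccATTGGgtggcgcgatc
H2-D1: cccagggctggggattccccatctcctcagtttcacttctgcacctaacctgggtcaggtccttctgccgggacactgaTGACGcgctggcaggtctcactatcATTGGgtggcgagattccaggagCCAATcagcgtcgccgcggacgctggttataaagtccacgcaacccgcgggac
B2m: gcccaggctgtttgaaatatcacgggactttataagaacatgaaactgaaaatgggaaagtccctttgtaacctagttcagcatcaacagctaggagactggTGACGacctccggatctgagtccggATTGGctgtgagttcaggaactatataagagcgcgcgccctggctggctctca

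ATTGG alone, searched on both strands, stood in all 5 promoters but also in 37.4% of the 32851 promoters in the table. Counted by gene, it stood in 14 of the 30 matched genes (46.7%) and in 41.1% of the 27025 genes in the table. TGACG stood in 20.8% of all promoters and AGCAAC in 14.8%. The layout of TGACG, 20 or 21 bases, then ATTGG was rare, in 0.164% of all promoters, and it was found in H2-Aa, H2-K1, H2-D1 and B2m and in no other of the 30 genes. The spacing was 21 bases in H2-Aa and 20 bases in H2-K1, H2-D1 and B2m. H2-Eb1 had no TGACG in this window and carried AGCAAC 92 bases and ATTGG 59 bases before its start. The layout was chosen after these promoters were read. H2-Aa, lower in csMed1-/- heart, therefore shared it with 3 class I genes that were higher. These are matches of letters, and no binding was measured.

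The class I and class II genes also lie close together. In the order H2-K1, H2-Ab1, H2-Aa, H2-Eb1, C4b, Tnf and H2-D1, 7 of the 41 genes stand within 1.27 Mb of chromosome 17 (33996012 to 35267497, GRCm38.p6). The higher H2-K1 and H2-D1 flank the lower class II genes on either side, and C4b, which was higher, lies between the class II genes and H2-D1. The 3 class II genes of the interval, which are neighbours, shared their direction, and Tnf was too low to be compared.

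The other genes that load class I molecules did not all share the direction of the heavy chains. Of 17 genes of class I processing that were kept, 1 was higher and 3 were lower past 2-fold, against 13.6% and 18.0% of all genes kept. The lower count was thus close to the share of all genes. Of the 17, 11 lay below a ratio of 1, and the median log2 ratio was -0.52. Calr, the chaperone calreticulin and the most abundant of them, was at 210 and 228 FPKM. H2-Q7, a nonclassical class I heavy chain with sequence close to H2-K1, had the highest ratio of the list, at 6.42 and 19.9 FPKM. Psme1, a subunit of the proteasome activator PA28, had the lowest, at 167 and 74.4 FPKM. Psmb8, Psmb9 and Psmb10, the catalytic subunits of the immunoproteasome, were chosen after their values were seen, and all were lower, with log2 ratios of -0.81, -0.78 and -1.14. Psmb10 and Erap1, a peptidase that trims class I peptides and was named likewise, at -1.05, were the other 2 genes lower past 2-fold. B2m was 15.2 times Psmb8 in control and 47.4 times in csMed1-/- heart. Of 10 other class II genes kept, 2 were higher and none was lower past 2-fold, with a median of 0.09. Lgmn, an endosomal protease that cuts antigens, was the most abundant and the highest by ratio, at 90.4 and 204 FPKM. H2-DMb2, a chain of the peptide exchanger of class II molecules, was the lowest, at 2.13 and 1.13 FPKM. The second higher gene, named after its value was seen, was Cd40, a costimulatory receptor, at 2.44 and 5.11 FPKM, and H2-Eb2 was listed at 0 in csMed1-/- heart.

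The complement genes differed in direction. The 3 chains of C1q were among the most abundant of the 41 genes. C1qa was at 91.1 FPKM in control heart and 123 FPKM in csMed1-/- heart, C1qb at 78.2 and 129 FPKM, and C1qc at 80.1 and 104 FPKM. All 3 chains, which assemble into 1 molecule and lie side by side on chromosome 4 (136880126 to 136898844), were higher within 2-fold, with log2 ratios of 0.43, 0.72 and 0.38. C1qa was 1.14 times C1qc in control and 1.18 times in csMed1-/- heart, and C1qb was 0.976 and 1.24 times C1qc. Serping1, the C1 inhibitor, was at 170 and 353 FPKM (1.05), just past 2-fold. C4b, which C1 cleaves, was at 1.91 and 5.98 FPKM (1.65). C3, on which all complement pathways meet, differed the other way, at 8.13 and 3.53 FPKM (-1.20). C3 was thus 4.26 times C4b in control and 0.59 times C4b in csMed1-/- heart. C4b is the least certain of these values, since 34.6% of its 50-base windows are shared with C4a, its neighbouring copy, which stood at 0.436 and 1.30 FPKM.

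Further along the pathway the genes did not move together. Of 13 other complement genes kept, 3 were lower past 2-fold, against 18.0% of all genes kept, and the median log2 ratio was -0.50. The lower genes were C1s, the protease that cleaves C4, at 5.91 and 2.15 FPKM, together with Masp1 and Vtn, which were named after their values were seen. Masp1, a protease of the lectin pathway, was at 22.0 and 8.02 FPKM, and Vtn, the plasma and matrix protein vitronectin, at 44.8 and 16.5 FPKM. Clu, an inhibitor of the membrane attack complex and the most abundant of the list, was at 237 and 435 FPKM. Cfd, C8a and C9 were listed at 0 in both libraries, and Masp2 in csMed1-/- heart.

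**Figure D3:**
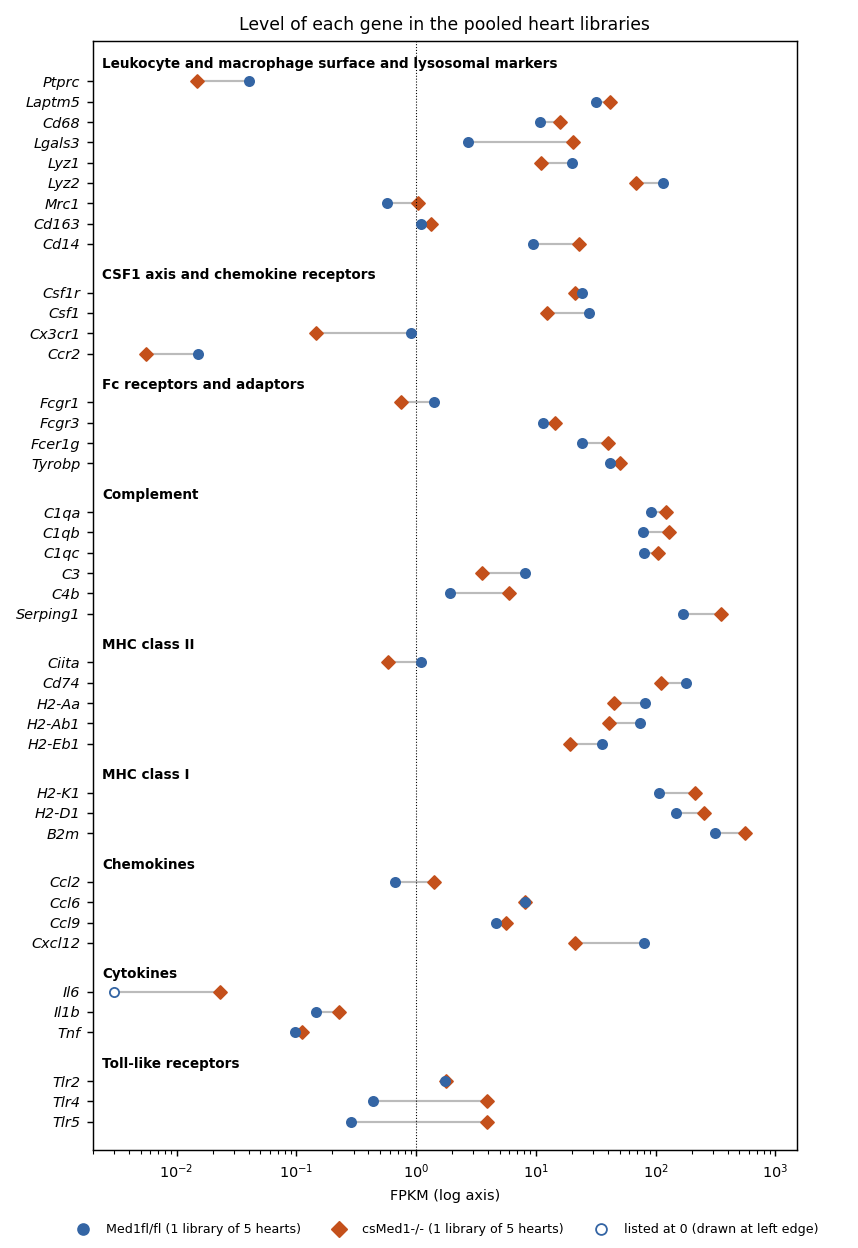
FPKM of all 41 genes on a log axis, grouped by role, in the Med1fl/fl (circles) and csMed1-/- (diamonds) library, each 1 pool of 5 hearts. The dotted line marks 1 FPKM, and the open circle of Il6 marks a value listed at 0. C1q, Serping1, Cd74 and the class I genes lie to the right near or above 100 FPKM, and the 3 cytokines lie below 1 FPKM in both libraries.

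The abundant macrophage markers lay within 2-fold of control. Laptm5, a lysosomal protein of blood cells, was at 31.9 FPKM in control heart and 41.2 FPKM in csMed1-/- heart. Cd68, the macrophage lysosomal marker, was at 10.9 and 15.9 FPKM, and Csf1r, the receptor that macrophages need to survive, at 24.3 and 21.3 FPKM. Their log2 ratios were 0.37, 0.55 and -0.19. Lyz2 and Lyz1, the lysozymes, differed the other way, at 116 and 68.0 FPKM for Lyz2 and 20.1 and 11.0 FPKM for Lyz1. Both were lower by less than 2-fold (-0.77 and -0.87). The lysozyme genes lie next to each other on chromosome 10 and share 15.4% and 16.1% of their 50-base windows, so their reads could have been split between them. Lyz2 was 3.63 times Laptm5 in control and 1.65 times in csMed1-/- heart.

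Lgals3, the β-galactoside-binding galectin-3 that activated macrophages secrete, differed most among the markers. It was at 2.69 FPKM in control heart and 20.4 FPKM in csMed1-/- heart (7.61-fold). Cd14, the coreceptor that hands bacterial lipopolysaccharide to Tlr4, was at 9.44 and 23.1 FPKM, a ratio of 2.45. The scavenger receptors of resident macrophages stood lower in level. Mrc1, the mannose receptor, was at 0.566 and 1.04 FPKM, and Cd163, the receptor for haptoglobin-bound haemoglobin, at 1.10 and 1.34 FPKM. Mrc1 lay within 2-fold at 0.88 and reached 2-fold with the values scaled as TPM. Ptprc, the pan-leukocyte phosphatase CD45, was only at 0.0403 and 0.0147 FPKM, far below Laptm5 in the same libraries, so its ratio was not read.

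The 4 genes of Fc receptors and adaptors in the set also lay within 2-fold of control. Tyrobp and Fcer1g, the adaptors that pass on signals of Fc receptors, were at 41.4 and 24.2 FPKM in control and 50.4 and 40.2 FPKM in csMed1-/- heart. Fcgr3, a low-affinity receptor for immunoglobulin G, was at 11.4 and 14.3 FPKM, and Fcgr1, the high-affinity receptor, at 1.40 and 0.742 FPKM. Of the 4 genes 3 were higher and Fcgr1 was lower, none past 2-fold, with log2 ratios of 0.29, 0.73, 0.32 and -0.92. Fcgr3 shares 9.58% of its windows with Fcgr2b, which was at 5.58 and 6.37 FPKM. Fcgr4, a further Fc receptor outside the set, was named after its value was seen. It was at 0.548 and 1.64 FPKM, higher past 2-fold, and was kept only through the csMed1-/- library.

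Other macrophage genes were also mostly inside 2-fold. Of 25 further genes of the list in the files 16 were kept, 1 was higher and none was lower past 2-fold, against 13.6% and 18.0% of all genes kept. The median log2 ratio was 0.27. Gas6, the bridging ligand for uptake of apoptotic cells and the most abundant, was at 116 and 150 FPKM. Emr1 was the lowest by ratio, at 3.33 and 1.77 FPKM. Gpnmb, a glycoprotein of lipid-laden and phagocytic macrophages, stood apart, at 0.324 and 9.87 FPKM, a ratio of 30.5, and was kept only through the csMed1-/- library.

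The CSF1 receptor and its ligand differed unequally. Csf1, the growth factor, was at 27.7 FPKM in control heart and 12.4 FPKM in csMed1-/- heart (log2 ratio -1.16). Csf1 was 1.14 times Csf1r in control and 0.583 times in csMed1-/- heart. Il34, the other ligand of this receptor, was compared with it after the values were seen. It was at 5.34 and 8.91 FPKM, so its level was 0.193 times that of Csf1 in control and 0.717 times in csMed1-/- heart. Of the chemokine receptors, Cx3cr1, a receptor of resident macrophages, was at 0.904 and 0.145 FPKM. Ccr2, the receptor that brings monocytes from blood, was at 0.0151 and 0.00554 FPKM. Both were below 1 FPKM in both libraries and were not compared.

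Among the chemokines, Cxcl12 was the most abundant and had the lowest ratio of the 35 genes kept. It encodes the ligand of Cxcr4, made mainly by stromal and endothelial cells, and was at 80.4 FPKM in control heart and 21.1 FPKM in csMed1-/- heart, 3.81-fold lower. Ccl2, the monocyte chemoattractant and ligand of Ccr2, differed the other way but at low level, at 0.670 and 1.42 FPKM (log2 ratio 1.08), and lay inside 2-fold once 0.1 FPKM was added to both values. Ccl6 and Ccl9, chemokines of myeloid cells that lie next to each other on chromosome 11, were at 8.07 and 4.66 FPKM in control and at 8.16 and 5.62 FPKM in csMed1-/- heart. The ratio of Ccl6, at 1.01, was close to even, and its sign turned with the scaling. Of 10 other chemokines and macrophage growth factors kept, 4 were higher and 2 lower past 2-fold, against 13.6% and 18.0% of all genes kept. Their median log2 ratio was 0.56. Ccl17, a chemoattractant of T cells, had the highest ratio, at 0.308 and 4.85 FPKM, and Cxcl14 the lowest, at 3.80 and 0.352 FPKM. Cxcl16 was the most abundant in control, at 6.41 and 8.37 FPKM. The other genes past 2-fold, named after their values were seen, were Cx3cl1 (4.28 and 21.8 FPKM), Ccl8 (0.725 and 2.61 FPKM) and Ccl12 (1.24 and 3.05 FPKM), which were higher, and Ccl24 (1.55 and 0.294 FPKM), which was lower. Ccl17 and Ccl8 were kept only through the csMed1-/- library and Cxcl14 and Ccl24 only through control. Cx3cl1 encodes the ligand of Cx3cr1, which was itself at 0.904 and 0.145 FPKM. Cxcl13, Csf2 and Csf3 were listed at 0 in control.

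The classical inflammatory cytokines were low in both genotypes. Il1b was at 0.147 FPKM in control heart and 0.225 FPKM in csMed1-/- heart, and Tnf at 0.0971 and 0.111 FPKM. Il6 was listed at 0 in control and was at 0.0231 FPKM in csMed1-/- heart, so no fold is given. A difference in these cytokines was not detectable at these levels.

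Of the 3 Toll-like receptors, which sense microbial products on the cell surface, Tlr5 and Tlr4 had the highest ratios of the 35 genes kept. Tlr5, the receptor for bacterial flagellin, was at 0.286 FPKM in control heart and 3.92 FPKM in csMed1-/- heart (13.7-fold). Tlr4, the lipopolysaccharide receptor, was at 0.438 and 3.88 FPKM, a ratio of 8.86. Tlr2, which binds bacterial lipoproteins, was at 1.73 and 1.76 FPKM, and its sign turned with the scaling. The values of Tlr4 and Tlr5 were low in control, and adding 1 FPKM to both values took their log2 ratios from 3.15 and 3.78 to 1.76 and 1.94, still past 2-fold. Cd14 was 21.6 times Tlr4 in control and 5.97 times in csMed1-/- heart.

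Interferon-stimulated genes, which include inducers of MHC genes, were mostly lower. Of 18 kept, 6 were lower and none was higher past 2-fold, against 18.0% lower and 13.6% higher of all genes kept. The median log2 ratio was -0.79, and 14 of the 18 were below a ratio of 1. Of the 6 lower genes, 2 passed the filter only through control, Rsad2 among them, which fixes their direction. Rsad2, an antiviral enzyme, was the lowest, at 1.63 and 0.238 FPKM. Ifi27l2a was both the most abundant and the highest by ratio, at 126 and 193 FPKM. Irf1, a transcription factor induced by interferon, was chosen after its values were seen and was at 20.7 and 6.91 FPKM. The class I heavy chains and B2m thus differed from most of this list in direction, and the class II genes of the set did not. Psmb8 and Psmb9, picked after their values were seen, did not either. Whether any of these genes differed through interferon was not tested.

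**Figure D4:**
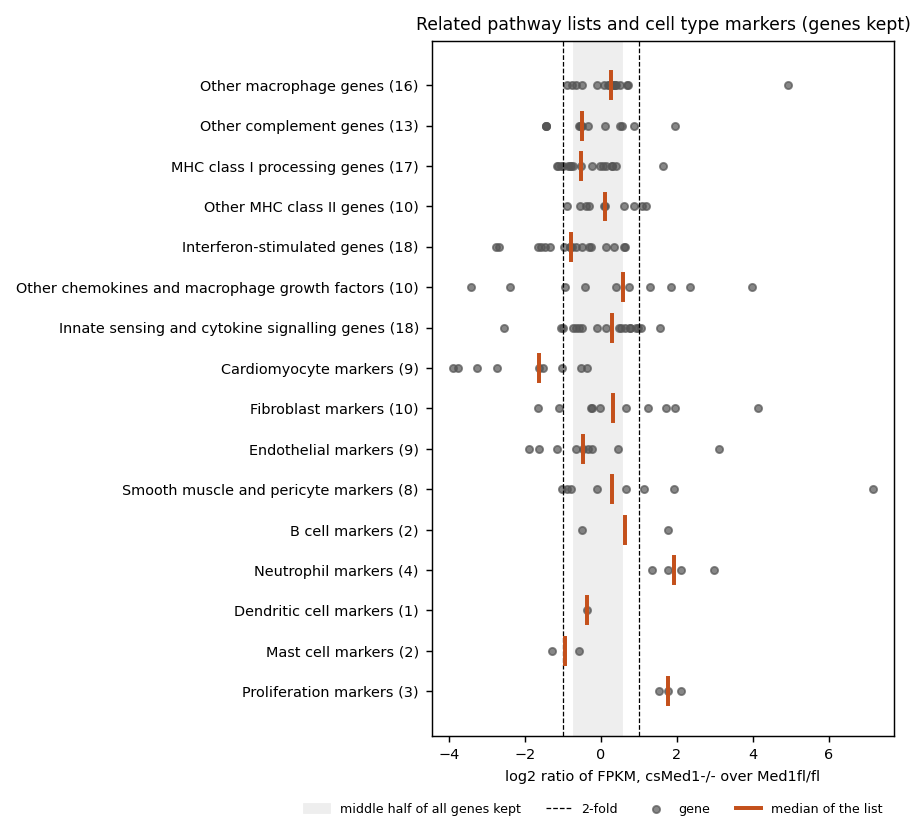
Log2 ratio of csMed1-/- to Med1fl/fl FPKM for the kept genes of the related pathway lists and of the cell type marker lists, with the number kept in parentheses. Points are genes, orange bars list medians, dashed lines 2-fold, and the shaded band the quartiles of all genes kept. The cardiomyocyte list has a median of -1.64 and the interferon-stimulated list of -0.79, whereas the 4 neutrophil markers kept lie between 1.33 and 2.97.

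Markers of other cell types that could contribute these transcripts also differed between the libraries, and their part in the differences above was not tested. Of 8 neutrophil markers 4 were kept, all of them higher past 2-fold, but Retnlg and Ngp passed the filter only through the csMed1-/- library. The summed level of the 8 was 5.17 FPKM in control heart and 17.9 FPKM in csMed1-/- heart. S100a8, a calcium-binding protein of neutrophils, was at 1.74 and 5.85 FPKM and Retnlg at 0.659 and 5.16 FPKM. The neutrophil list was thus higher but remained low against the C1q genes. No T cell or NK cell marker reached 1 FPKM, and their summed levels were 1.10 and 1.36 FPKM for 8 T cell markers and 0.427 and 0.320 FPKM for 7 NK cell markers, with Ncr1 listed at 0 in csMed1-/- heart. The 8 dendritic cell markers summed to 4.51 and 3.24 FPKM, and only Zbtb46, which endothelial cells also use, was kept. The 7 B cell markers summed to 6.78 and 16.7 FPKM, most of it from Blk (4.52 and 15.2 FPKM), whose symbol stands on 4 rows, whereas Cd79b was at 1.30 and 0.916 FPKM and Ms4a1 and Pax5 were listed at 0 in csMed1-/- heart. The 7 mast cell markers summed to 4.62 and 2.69 FPKM, with 2 kept, of which 1 was lower past 2-fold. This was Mcpt4, at 1.05 and 0.431 FPKM, which passed the filter only through control, and that fixes its direction. Ms4a2 was listed at 0 in both libraries and Fcer1a in control.

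The stromal lists, cells in which Cxcl12, Serping1 and C3 can also be made, were mixed. Of 10 fibroblast markers kept 4 were higher and 2 lower past 2-fold, and the list summed to 2083 FPKM in control heart and 2481 FPKM in csMed1-/- heart. Gsn, the most abundant of them, was at 1538 and 1274 FPKM, so much of each sum is that gene. Postn, a matrix protein of activated fibroblasts, had the highest ratio, at 1.57 and 27.4 FPKM, and Dpt, a matrix protein of resting ones, the lowest, at 41.3 and 13.1 FPKM. Of 9 endothelial markers kept 1 was higher and 3 lower past 2-fold, with sums of 746 and 1036 FPKM. Cldn5, a tight junction protein, was the higher gene, at 56.6 and 490 FPKM, and without it the sums were 690 and 546 FPKM. Of 8 smooth muscle and pericyte markers 3 were higher and 1 lower past 2-fold, with sums of 722 and 1143 FPKM, and Cnn1 alone was at 4.32 and 622 FPKM. Without Cnn1 the sums were 718 and 521 FPKM, most of it from Acta2 (573 and 310 FPKM). The direction of the sum thus rested on single genes. The cardiomyocyte list summed to 42743 and 21603 FPKM, a ratio of 0.505, and without Actc1 and Mb, which control lists at 0, to 42743 and 11374 FPKM, a ratio of 0.266. The 3 proliferation markers kept of 7 passed the filter only through the csMed1-/- library, which fixes their direction, with Cdk1 at 0.322 and 1.39 FPKM. Cenpf, which was not kept, was at 0.096 and 0.0325 FPKM. The 41 genes made up 0.229% of all FPKM in control heart and 0.325% in csMed1-/- heart.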

How the data were processed

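Heart RNA of 5 mice per genotype was pooled, selected for poly(A) and sequenced as 1 directional library of 50 nt single-end reads each. Per the study's methods the authors aligned reads to mm10 with TopHat (2.0.8b in the submitters' processing notes, which also name STAR 2.4.0h with no role stated) and computed expression of known genes with Cufflinks and Cuffdiff 2.1.1. The deposited values are FPKM, and the library scaling is not stated. Whether counting used strand is not given in the sources used here.

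Rows of a symbol were summed (412 symbols, 1 of the 41 genes), and ratios were computed with no pseudocount. With 1 library per genotype no test was made. Genes at or past 1 FPKM in either library and above 0 in both were compared, at 2-fold. All 41 genes are named, as are, of each related list, the most abundant gene in control and the highest and lowest ratio. Others are marked as chosen after their values were seen. Some results are not reported here. The genes and lists were chosen with earlier results of these data known. Relative depth came from 2461 rows whose values did not exceed 0.15 FPKM in either library. Positions and promoters are from RefSeq GRCm38.p6, and shared 50-base windows from GENCODE M21 transcripts, on the sense strand. Python 3.11.15, numpy 2.4.6, pandas 2.3.3 and matplotlib 3.10.9 were used, and the computation was tested on simulated data. The alternatives were 12 settings of pseudocount, filter, scaling, threshold and treatment of rows.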

Additional observations from a re-analysis of the deposited data

How the results depend on the processing

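No paired analysis was possible because each genotype is 1 library, and no library could be left out. Of the 35 genes kept, 33 kept the sign of their log2 ratio under every alternative that gave them a value, and Ccl6 and Tlr2 did not. Of 331 gene values under alternatives, 2 moved by 1.5 times or more, Tlr4 to 1.76 and Tlr5 to 1.94 with 1 FPKM added. Filters and the treatment of rows left each ratio given unchanged, and scalings shifted all genes alike, by at most 0.12. Only the settings that add FPKM could thus have moved a value that far. H2-K1 and Ccl2 came inside 2-fold under 2 settings each, and Mrc1 passed it under TPM scaling. TPM scaling moved the median of all genes by 0.12, and the other scalings by -0.04 to 0.07. The counts moved most with the filter and the threshold. Without a filter on level 40 of the 41 genes were above 0 in both libraries, and 8 of these were higher and 6 lower. Ptprc, Cx3cr1 and Ccr2 were the lower genes added. Of all 15930 genes under that setting, 2504 were higher and 3182 lower. Together 5686 genes of all passed 2-fold, against 3309 of the 10489 kept with the filter. With 1 FPKM in both libraries 5 of the genes were higher and 3 lower (11.3% and 14.7% of all genes). With 10 FPKM in the higher library 4 were higher and 2 lower (15.1% and 16.3% of all), where 1706 genes of all passed. At 4-fold 3 of the 35 were higher (Lgals3, Tlr4 and Tlr5) and 0 were lower, against 4.32% and 5.14% of all genes, and 992 of all passed. At 1.5-fold 13 of the 35 were higher and 11 lower, against 23.7% and 29.7% of all genes, and 5608 of all passed. With no replicate and no read totals, the precision of single values is unknown, most of all below 1 FPKM.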

Other observations

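Genes of innate sensing and cytokine signalling beside the 41 were also mixed. Of 18 kept of 36 in the files, 2 were higher and 2 lower past 2-fold, against 13.6% and 18.0% of all genes kept. The median log2 ratio was 0.29. Tnfrsf1a, the main receptor for tumour necrosis factor and the most abundant of the list, was at 49.4 FPKM in control heart and 96.0 FPKM in csMed1-/- heart. Socs3, a feedback inhibitor of cytokine signals, had the highest ratio, at 3.02 and 8.89 FPKM. Pycard, the adaptor of inflammasomes, had the lowest, at 6.82 and 1.16 FPKM. The remaining genes past 2-fold were subunits of NF-κB that differed in opposite directions, Rela at 37.5 and 77.3 FPKM and Nfkb1 at 12.5 and 5.98 FPKM, named after their values were seen. Myd88 and Ticam1, adaptors of the Toll-like receptors, were chosen in the same way and were at 10.8 and 12.3 FPKM in control and 18.2 and 20.6 FPKM in csMed1-/- heart. Il33, an alarmin of stromal cells, was below 1 FPKM in both libraries, at 0.539 and 0.0652 FPKM, and Il10 was listed at 0 in control.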
